A study of Homo sapiens with 18 samples.

Results

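Semaphorins are secreted or membrane-bound guidance ligands, plexins are their main receptors, and neuropilins are co-receptors that secreted semaphorins share with the VEGF family. All protein-coding genes with a human symbol of the SEMA3 to SEMA7, PLXNA to PLXND or NRP type were taken, giving 31 of the 62703 genes measured. They comprise 20 semaphorins (7 of class 3, 6 of class 4, 2 of class 5, 4 of class 6 and 1 of class 7), 9 plexins and 2 neuropilins. The family was chosen by the counts of SEMA3B and SEMA3F, which were much lower with the EZH2 hairpin than with the control hairpin. Every value of the EZH2 hairpin against its control is therefore given below as a description. No p-value is given for it, and a gene said to be called with shEZH2 only passed the same thresholds as in the other comparisons. The E2F1 hairpin is set against the same control libraries, so the values of SEMA3B and SEMA3F in that comparison are not independent of the choice either and are also descriptions.

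Semaphorin binding releases a plexin from its inactive shape, and the plexin then acts on small GTPases and on the actin and microtubule cytoskeleton. Class 3 semaphorins are secreted and most of them need a neuropilin to reach a class A plexin, while SEMA3E can bind PLXND1 directly. Classes 4 to 6 are transmembrane proteins and SEMA7A is held by a lipid anchor. SEMA3B and SEMA3F lie in a segment of chromosome 3p that is often lost in carcinomas and have long been studied as candidate tumour suppressors, whereas SEMA3C and SEMA4D are known for promoting migration or vessel growth.

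The cells were MDA-MB-231, an established line from a triple-negative breast carcinoma. RNA-seq covered 5 groups of 2 distinct libraries each. Control shRNA, shEZH2 and shE2F1 cells were transduced with a pLKO.1 lentivirus for 24 h and selected with 2 μg/ml puromycin for 72 h. Only 1 hairpin per target was sequenced, so an effect of the sequence of that hairpin and of loss of its target cannot be told apart. DMSO and GSK126 cells were neither transduced nor selected and received vehicle or 1 μM GSK126, a small molecule that blocks the enzyme activity of EZH2, for 72 h. EZH2 methylates histone H3 within the Polycomb repressive machinery, and E2F1 drives genes needed for DNA synthesis. The hairpin comparisons ask which transcripts differ with each hairpin, and the drug comparison asks which differ when EZH2 enzyme activity is blocked.

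The libraries held between 13198932 and 20055550 expected counts, so the floor of 3 counts corresponded to at most 0.227 counts per 1000000 (CPM). The hairpins lowered their targets. EZH2 had 155 and 183 CPM under Control shRNA, 53.1 and 44.8 under shEZH2 and 122 and 138 under shE2F1. E2F1 had 145 and 140 CPM under Control shRNA, 63 and 32.3 with shEZH2 and 26.2 and 22.7 with shE2F1, so it was lower with both hairpins. Its log2 change with shEZH2 was -1.59 ± 0.23. The shEZH2 libraries thus held less RNA of both targets, and effects of the 2 losses cannot be told apart there. The log2 change of E2F1 with shE2F1 was -2.54 ± 0.24 (SE, edgeR adjusted p = 1.52e-05) and that of EZH2 with shEZH2 was -1.79 ± 0.12. The mesenchymal markers VIM, CD44 and ZEB1 were present in every library, ESR1 and FOXA1 reached at most 0.17 and 0.24 TPM (RSEM's length-scaled transcript abundance) and PGR was at 0 throughout. EPCAM (12.4 to 37.7 TPM) and GATA3 (5.86 to 13.8 TPM), listed as low in this line, were detected. CDH1, the epithelial cadherin on the same list, had 16 and 3 counts in control, 32 and 46 with shEZH2 and 205 and 119 with shE2F1, and rose by 3.91 ± 0.45 (log2) with shE2F1 (edgeR adjusted p = 6.41e-05). Its shEZH2 value was 2.23. EPCAM fell by 1.24 ± 0.13 with shE2F1 (edgeR adjusted p = 3.02e-05), and VIM was at -1.33 with shEZH2. The summed level of 4 immune markers was 78.9 to 80.6 TPM in control, 30.8 to 38.1 with shEZH2 and 146 to 158 with shE2F1. Nearly all of it was CD68, a lysosomal protein that many cells make, while CD3E was at 0 in every library, and the 3 endothelial markers summed to at most 0.74 TPM and the 3 neural ones to at most 6.52 TPM. The part of these marker differences in the members' changes was not tested. No source says that replicates are separate cultures, so the p-values measure only the spread between these libraries. In bulk RNA, fewer cells with a transcript and less of it per cell cannot be told apart.

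The promoters of 4 class 3 semaphorins are shown because these genes bracket the results below. SEMA3B and SEMA3F were much lower with the EZH2 hairpin than with the control hairpin. SEMA3C was called higher with the E2F1 hairpin, and SEMA3E was called higher with both. Each line gives the 250 bases before the start site from RefSeq (GRCh38.p14), read 5′ to 3′ on the strand of the gene, with CpG dinucleotides in capitals.
SEMA3B (chr3:50268911-50269160, plus strand): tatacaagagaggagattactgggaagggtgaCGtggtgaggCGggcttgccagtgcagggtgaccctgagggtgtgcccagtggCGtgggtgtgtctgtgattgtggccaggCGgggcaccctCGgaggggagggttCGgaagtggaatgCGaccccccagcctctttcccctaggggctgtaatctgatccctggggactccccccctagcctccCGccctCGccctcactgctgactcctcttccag
SEMA3F (chr3:50155074-50155323, plus strand): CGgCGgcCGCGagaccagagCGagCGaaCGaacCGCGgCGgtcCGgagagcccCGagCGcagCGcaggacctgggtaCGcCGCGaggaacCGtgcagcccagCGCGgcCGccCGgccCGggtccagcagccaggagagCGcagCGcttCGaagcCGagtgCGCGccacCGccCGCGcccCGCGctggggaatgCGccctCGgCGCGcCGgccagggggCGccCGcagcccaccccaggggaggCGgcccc
SEMA3C (chr7:80919052-80919301, minus strand): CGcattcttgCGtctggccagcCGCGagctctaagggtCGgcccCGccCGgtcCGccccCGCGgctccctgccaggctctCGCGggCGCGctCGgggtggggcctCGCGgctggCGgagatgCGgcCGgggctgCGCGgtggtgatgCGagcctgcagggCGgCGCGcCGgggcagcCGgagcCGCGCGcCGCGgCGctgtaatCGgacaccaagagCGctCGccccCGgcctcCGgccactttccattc
SEMA3E (chr7:83649140-83649389, minus strand): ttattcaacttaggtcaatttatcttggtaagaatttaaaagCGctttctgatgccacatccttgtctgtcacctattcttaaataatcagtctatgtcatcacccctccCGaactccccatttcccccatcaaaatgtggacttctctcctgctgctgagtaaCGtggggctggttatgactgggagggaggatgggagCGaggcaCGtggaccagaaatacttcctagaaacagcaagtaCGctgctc
SEMA3F and SEMA3C have dense CpG promoters, with 42 and 39 CpGs and GC contents of 80.4% and 77.6%. SEMA3B has 9 CpGs and SEMA3E 6, at 64.0% and 46.4% GC. Genes that were lower and genes that were higher with a hairpin thus stand on each side of this split. The windows of SEMA3B, SEMA3F and SEMA3C lie inside their annotated gene spans, so other starts lie further upstream. Each CpG count holds for the start shown only. A promoter within 50 bases of the main annotated start was found for 25 of the 31 members, with a median of 24 CpGs against 11 over all 35116 promoters of the table. None of the 25 held an E2F-type octamer (TTTCCCGC, TTTCGCGC, TTTGCCGC or TTTGGCGC, either strand), and 979 of all promoters (2.79%) did. This says only that these letters are not in these windows.

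NRP1 and PLXNB2 were the family's most abundant transcripts per unit length in control cells. TPM values are scaled by transcript length and allow genes to be compared. In the 2 control libraries NRP1, the co-receptor for class 3 semaphorins and VEGFA, was at 99.4 and 89.8 TPM, and PLXNB2, a receptor for class 4 semaphorins, at 101 and 83.6 TPM. SEMA7A, an integrin- and PLXNC1-binding ligand, followed at 73.1 and 83.3 TPM, SEMA3C at 84.8 and 63.9 TPM and SEMA3B at 97.8 and 44.4 TPM. Neighbours in this order overlapped in their replicate values, except PLXNB2 (lowest 83.6 TPM) and SEMA7A (highest 83.3 TPM). SEMA4B (50.4 and 42.7 TPM), PLXNA1 (50.4 and 30 TPM) and SEMA3F (35.8 and 25.2 TPM) formed the next tier, and neighbours among them overlapped as well.

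Below these lay PLXNA3, PLXND1, PLXNB3, SEMA6B and SEMA4D with control means between 12.6 and 25.5 TPM. PLXNA2, SEMA4C, SEMA4F, NRP2, SEMA3A, PLXNB1, SEMA3D, SEMA6C, SEMA6D and SEMA3E had means from 8.31 down to 1.31 TPM. SEMA4G, PLXNC1, PLXNA4, SEMA6A, SEMA3G, SEMA5A and SEMA4A were under 1 TPM. SEMA5B had no count in any transduced library and at most 2 in a drug-experiment library. Averaged over all 10 libraries, 6 members exceeded 50 TPM, 14 exceeded 10 TPM and 24 exceeded 1 TPM. PLXNC1, the plexin known to bind SEMA7A, ranged only from 0.33 to 2.19 TPM beside SEMA7A at 41.5 to 296 TPM. PLXNC1 overlaps CEP83 and PLXNA3 overlaps LAGE3 on the opposite strand, and their values are uncertain if the counting ignored strand.

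**Figure D1:**
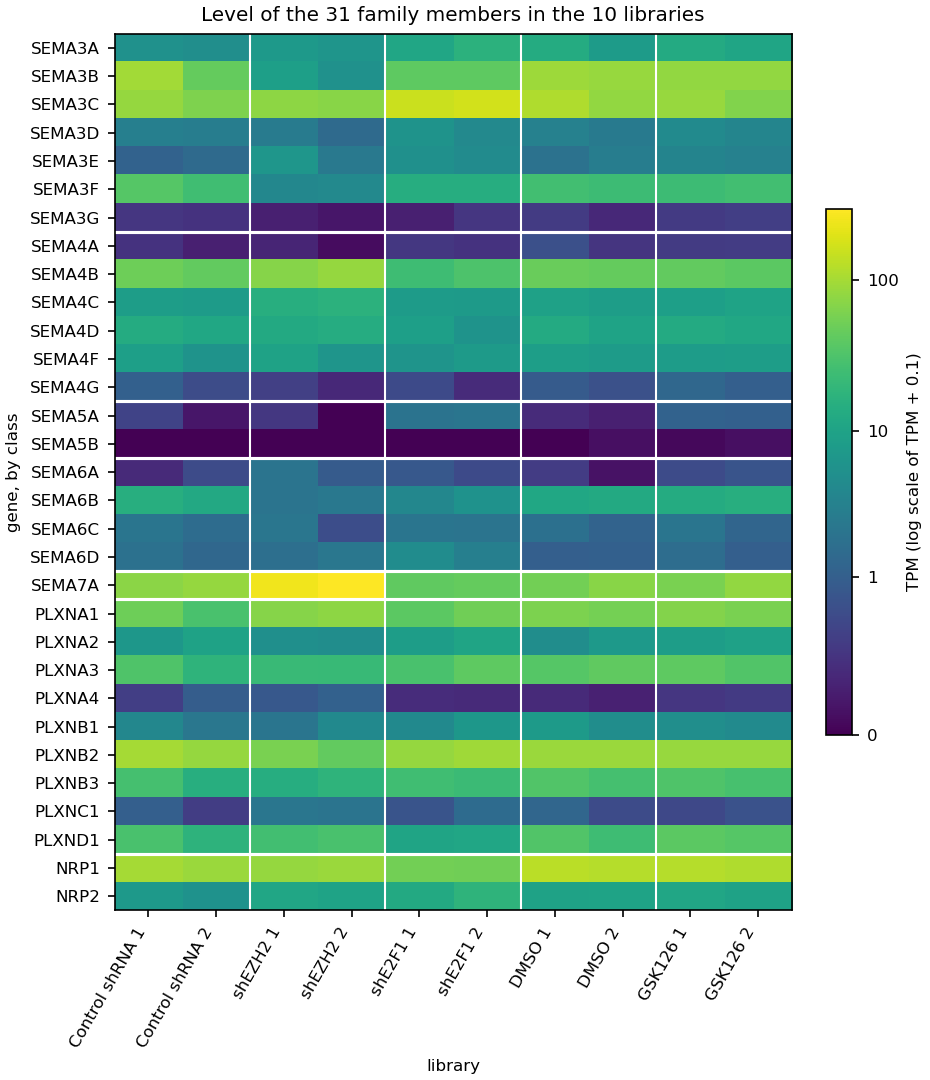
Level of the 31 members (rows, by class) in the 10 libraries (columns, replicate 1 and 2 of each group), with colour giving TPM on a log scale of TPM + 0.1. SEMA3B and SEMA3F darken in the shEZH2 columns, SEMA7A brightens there up to 296 TPM, and the DMSO and GSK126 columns look alike for most rows.

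Changes were taken from counts with edgeR's quasi-likelihood test, and a gene was called when its Benjamini-Hochberg adjusted p over all genes was under 0.01 and its change over 2-fold. All members except SEMA4A and SEMA5B passed the filter on low counts, leaving 29. The filter asked for enough counts in as many libraries as a group holds, so a gene can pass through its high group alone. In the hairpin fit SEMA5A passed only through shE2F1 and SEMA4G only through Control shRNA. In the drug fit SEMA6A passed only through GSK126. The counts of members below include these genes. With shEZH2, 11 of the 29 were called, 7 lower and 4 higher, and over all 15373 genes tested 18.2% were called, 10.7% lower and 7.52% higher. The members' median log2 change was -0.25 and that of all genes was -0.02. These counts follow from the choice of the family and nothing is read from them. With shE2F1, 13 of the 29 were called, 8 lower and 5 higher, beside 11.6% of all genes, 5.96% lower and 5.6% higher. The 8 lower members include SEMA3F. The members' median log2 change there was -0.24 and that of all genes was -0.00049. Both hairpin comparisons use the same 2 control libraries. With GSK126, none of 29 was called, as was none of the 14632 genes tested in that experiment (0%). DESeq2 called 11 of those genes and no member. That fit did not use the replicate number, and with it as a block edgeR called 68 genes and 2 members.

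**Figure D2:**
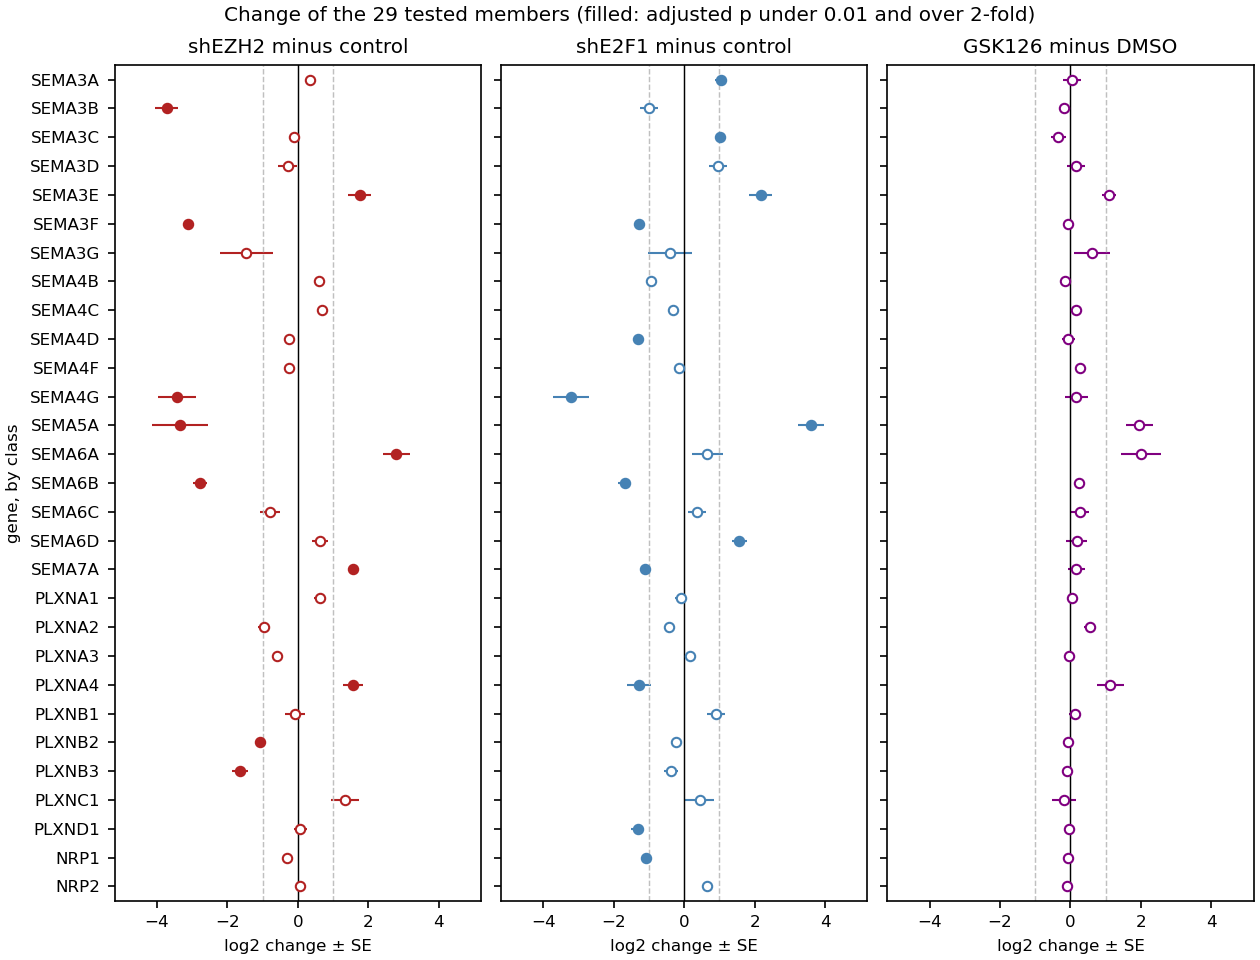
Log2 change (x axis, ± SE from the edgeR fit, 2 libraries a group) of the 29 tested members in the 3 comparisons, ordered by class. Filled points are called; the dashed lines mark 2-fold. SEMA3B, SEMA3F, SEMA4G and SEMA6B lie left of 0 in both hairpin panels, SEMA5A, SEMA7A and PLXNA4 change sides, and no GSK126 point is filled.

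SEMA3B (chr3:50267558-50277546, plus strand, GRCh38, GENCODE v44) was the member with the lowest value relative to control under shEZH2. Its normalised read counts (CPM scaled by edgeR's TMM factors) were 168 and 80.9 in the control libraries, 11.5 and 7.67 with shEZH2 and 62.3 and 62.8 with shE2F1. Every hairpin library was below both control libraries, but the controls differed from each other by more than the shE2F1 libraries did from the lower control. The log2 change was -3.72 ± 0.32 (SE) with shEZH2, a 13.2-fold lower count. It was -3.10 without control replicate 1 and -4.15 without control replicate 2. With shE2F1 it was -1.0 ± 0.26 and was not called. That value was -0.38 without control replicate 1 and -1.42 without control replicate 2, so its size rested on which control library was used. It passed the thresholds without control replicate 2 or shEZH2 replicate 1.

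SEMA3F (chr3:50155045-50189075, plus strand), its neighbour and a ligand of NRP2, had tighter replicates. Its CPM were 67.6 and 53.9 in control, 6.91 and 7.09 with shEZH2 and 26.4 and 23.6 with shE2F1. The 3 groups did not overlap, and shE2F1 lay between the others. The log2 change was -3.12 ± 0.15 with shEZH2. With shE2F1 it was -1.28 ± 0.13, and it stayed past the thresholds whichever library was left out. On a length scale SEMA3F went from 35.8 and 25.2 TPM in control to 3.92 and 4.14 TPM with shEZH2, and SEMA3B to 9.06 and 5.56 TPM. SEMA3G, the third class 3 member on this chromosome, had at most 20 counts in any library and was not called.

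SEMA3A, SEMA3C, SEMA3D and SEMA3E, the class 3 semaphorins on chromosome 7, did not share the low values of SEMA3B and SEMA3F. SEMA3C, a ligand of both neuropilins, had 205 and 186 CPM in control, 184 and 179 with shEZH2 and 392 and 405 with shE2F1. The shE2F1 libraries stood about 2-fold above all others, while the log2 change with shEZH2 was -0.10 ± 0.09. SEMA3C rose by 1.03 ± 0.09 with shE2F1 (log2, edgeR adjusted p = 9.37e-06). SEMA3A, the founding repulsive ligand of NRP1, rose by 1.04 ± 0.16 (edgeR adjusted p = 0.000349), from 17.3 and 15.4 CPM to 29.5 and 37.9 CPM, and its shEZH2 libraries were at 23 and 19 CPM. Both stayed close to the 2-fold line. SEMA3C was at 0.97 without control replicate 2, and SEMA3A was at 0.97 without control replicate 2 and 0.85 without shE2F1 replicate 2, which ended those calls.

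SEMA3E, the PLXND1 ligand, was the only member called higher with both hairpins. Its CPM were 3.23 and 2.06 in control, 12.1 and 6.11 with shEZH2 and 11.9 and 12.2 with shE2F1. All 4 hairpin libraries exceeded both controls, and the shEZH2 pair was spread widely. The log2 change was 1.76 ± 0.33 with shEZH2 and SEMA3E rose by 2.17 ± 0.32 with shE2F1 (edgeR adjusted p = 0.000314). SEMA3D reached 22.4 and 15.5 CPM with shE2F1 against 10.7 and 8.8 in control, with a log2 change of 0.96 ± 0.25 that missed the fold requirement (edgeR adjusted p = 0.00997).

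Among the transmembrane semaphorins, SEMA6B was lower with both hairpins. SEMA6B, a ligand of class A plexins, had 38.6 and 33.2 CPM in control, 4.78 and 5.65 with shEZH2 and 9.18 and 13.1 with shE2F1. The groups were fully separate. Its log2 change was -2.77 ± 0.20 with shEZH2, and it fell by 1.69 ± 0.18 with shE2F1 (edgeR adjusted p = 3.36e-05). SEMA4D, the ligand of PLXNB1, fell by 1.31 ± 0.13 with shE2F1 (edgeR adjusted p = 2.56e-05), from 34.6 and 29.3 CPM to 13.4 and 12.4 CPM, and had 26.3 and 27 CPM with shEZH2. SEMA4B, an abundant class 4 member, had 112 and 100 CPM in control, 48.4 and 61.5 with shE2F1 and 140 and 179 with shEZH2. Its shE2F1 change of -0.95 ± 0.14 had an edgeR adjusted p of 0.000369 but missed 2-fold, and it passed without control replicate 2 (-1.02) or shE2F1 replicate 2 (-1.13).

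SEMA6D, a ligand of PLXNA1, rose by 1.57 ± 0.21 with shE2F1 (edgeR adjusted p = 0.000153). It had 3.55 and 3.88 CPM in control, 12.1 and 9.94 with shE2F1 and 5.16 and 6.28 with shEZH2. SEMA6A, a ligand of PLXNA2 and PLXNA4, was raised on few reads with shEZH2, with expected counts of 9 and 8 in control and 47 and 56 with shEZH2, a log2 change of 2.79 ± 0.38. Its shE2F1 libraries held 15 and 15 counts. SEMA6A overlaps SEMA6A-AS1 on the opposite strand, with mean counts of 18.3 and 8.4, and its values are uncertain if the counting ignored strand. SEMA4G had 48 and 29 counts in control, 3 and 3 with shEZH2 and 6 and 3 with shE2F1. Only its control libraries carried it past the filter on low counts. The summed counts gave ratios to control of 0.0942 with shEZH2 (95% exact interval 0.0335 to 0.215) and 0.119 with shE2F1 (0.0525 to 0.238), where the intervals cover counting error only. SEMA4G fell by 3.21 ± 0.50 with shE2F1 (edgeR adjusted p = 0.000464) but lost the call without shE2F1 replicate 2 (-2.88, edgeR adjusted p = 0.0118). It overlaps MRPL43 on the opposite strand, which carries 1001 counts on average. The library kit keeps the strand of each read, but the strand setting of the counting is not given in the sources used here, so reads of both genes are mixed only if that setting ignored strand. The other tested members of classes 4 and 6, SEMA4C, SEMA4F and SEMA6C, were not called with either hairpin, with shE2F1 changes of -0.33, -0.14 and 0.36.

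The semaphorins SEMA7A and SEMA5A and the plexin PLXNA4 were called in opposite directions by the hairpins. SEMA7A had 155 and 185 CPM in control, 450 and 560 with shEZH2 and 79.6 and 79 with shE2F1. The 3 groups did not overlap. The log2 change was 1.57 ± 0.12 with shEZH2, and SEMA7A fell by 1.10 ± 0.12 with shE2F1 (edgeR adjusted p = 5.17e-05), or by 0.96 without control replicate 2, under the 2-fold line. SEMA7A was the most abundant member in the shEZH2 libraries at 246 and 296 TPM.

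SEMA5A, a transmembrane ligand with thrombospondin repeats, moved the other way and on few reads. Its expected counts were 17 and 9 in control, 2 and 0 with shEZH2 and 195 and 160 with shE2F1. The ratio of summed counts to control was 0.093 with shEZH2 (95% exact interval 0.0107 to 0.371) and 13.9 with shE2F1 (9.35 to 21.6). SEMA5A rose by 3.60 ± 0.37 on the log2 scale with shE2F1 (edgeR adjusted p = 2.86e-05), and by 3.31 to 4.03 when libraries were left out. SEMA5A passed the filter on low counts only through its shE2F1 libraries, where it is high, so that p-value carries this limit. Its shEZH2 change of -3.35 ± 0.80 was no longer called without control replicate 1 (-2.93), shE2F1 replicate 1 (-3.34) or shEZH2 replicate 2 (-2.22). Without shEZH2 replicate 1 the group has 0 counts, and a fitted change is then neither a value nor a bound.

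PLXNA4, a receptor for SEMA3A and SEMA6A, had 2.58 and 2.55 CPM in control, 6.3 and 8.88 with shEZH2 and 0.87 and 1.25 with shE2F1. The groups were again separate, at low counts. The log2 change was 1.57 ± 0.28 with shEZH2 and -1.28 ± 0.33 with shE2F1 (edgeR adjusted p = 0.00899). Leaving out any 1 of the control or shE2F1 libraries took the shE2F1 call away, with values from -1.55 to -1.04 and edgeR adjusted p-values of 0.0231 to 0.084. The call was also lost with DESeq2 (adjusted p = 0.0142), GC and length correction (edgeR adjusted p = 0.0109), all 10 libraries in the fit (0.0111) or the 4 libraries of the comparison alone (0.0122), at log2 changes of -1.27 to -1.20. The shEZH2 value was not called without shEZH2 replicate 2 (1.31). Directly between the hairpins, shEZH2 minus shE2F1 was -6.96 on the log2 scale for SEMA5A, 2.85 for PLXNA4 and 2.67 for SEMA7A, and these values are described only, because the shEZH2 libraries chose the family.

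**Figure D3:**
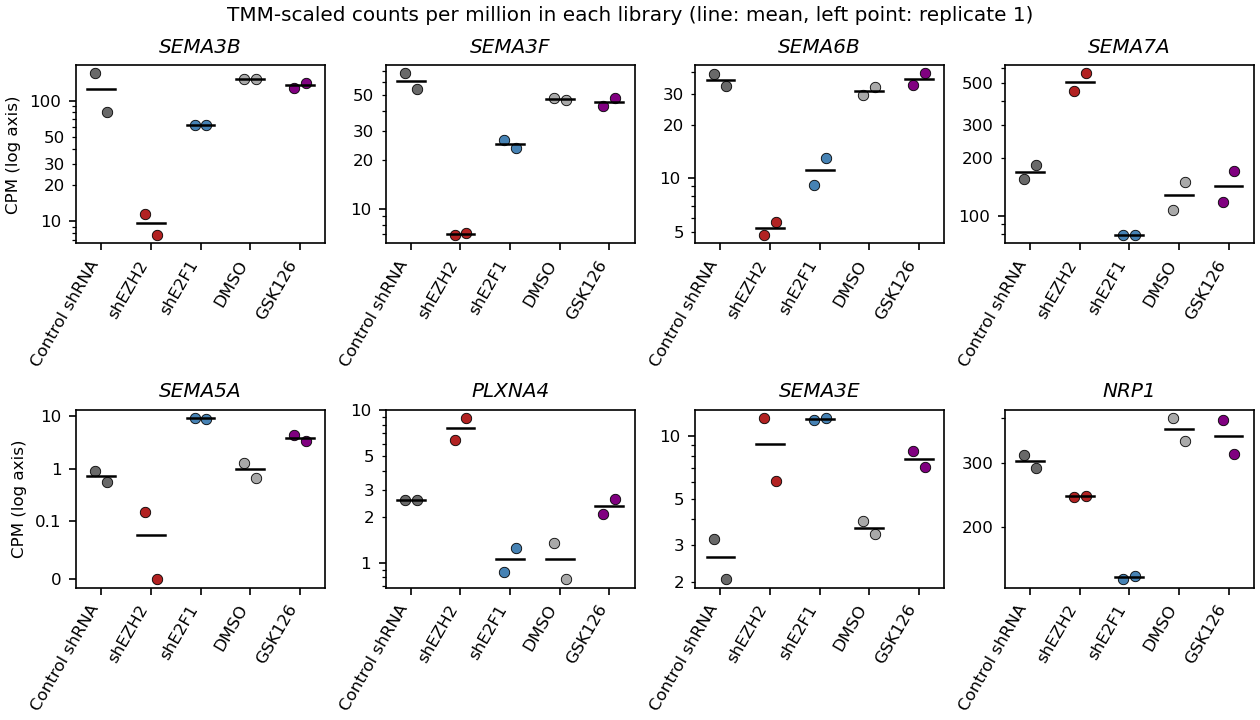
TMM-scaled CPM of 8 members in each library, on log y axes (linear below 0.1 for SEMA5A); in each group the left point is replicate 1, the right point is replicate 2 and the line is their mean. SEMA3B and SEMA3F are lowest with shEZH2 and intermediate with shE2F1, SEMA7A and PLXNA4 are highest with shEZH2 and lower than control with shE2F1, and SEMA5A shows the reverse.

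Of the other plexins, PLXND1 was called with shE2F1, and PLXNB2 and PLXNB3 with shEZH2. PLXND1, the receptor of SEMA3E, had 60.5 and 37.8 CPM in control, 46.5 and 56.4 with shEZH2 and 19.5 and 19.9 with shE2F1. Both shE2F1 libraries were below all others, and the shEZH2 libraries lay within the control range. PLXND1 fell by 1.32 ± 0.19 with shE2F1 (log2, edgeR adjusted p = 0.000304), or by 0.94 without control replicate 1, which is under 2-fold. PLXNB2 had 321 and 270 CPM in control, 161 and 121 with shEZH2 and 235 and 265 with shE2F1, with log2 changes of -1.07 ± 0.14 and -0.24 ± 0.14 (edgeR adjusted p = 0.173). Its shEZH2 value was -0.95 without control replicate 1 and -0.87 without shEZH2 replicate 2.

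PLXNB3, a receptor of SEMA5A, had 46.8 and 27.7 CPM in control, 11.3 and 12.6 with shEZH2 and 30.4 and 26.8 with shE2F1. Its log2 changes were -1.64 ± 0.22 and -0.38 ± 0.20 (edgeR adjusted p = 0.145), and the second was 0.04 without control replicate 1. PLXNB1, the SEMA4D receptor, had 8.07 and 4.49 CPM in control and 11.4 and 12.3 with shE2F1, a log2 change of 0.91 ± 0.25 (edgeR adjusted p = 0.0136) that passed without control replicate 1 (1.39). The remaining plexins PLXNA1, PLXNA2, PLXNA3 and PLXNC1 had shE2F1 changes between -0.42 and 0.44 on the log2 scale, and none was called. With shEZH2 their changes ran from -0.96 (PLXNA2) to 1.35 (PLXNC1). PLXNA2 passed without control replicate 1 (-1.20) or shEZH2 replicate 1 (-1.09). PLXNC1, on 17 to 85 counts, passed without control replicate 1 (2.06).

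NRP1 fell and NRP2 did not pass the fold requirement with shE2F1. NRP1 had 315 and 291 CPM in control, 242 and 243 with shEZH2 and 143 and 146 with shE2F1. The shE2F1 libraries were about 2-fold below control, and shEZH2 lay between. NRP1 fell by 1.07 ± 0.09 on the log2 scale with shE2F1 (edgeR adjusted p = 6.5e-06), a call that no left-out library ended. NRP2, the SEMA3F co-receptor, had 19.5 and 22.8 CPM in control, 19.4 and 24 with shEZH2 and 31.4 and 34.6 with shE2F1. Its log2 change was 0.64 ± 0.14 with shE2F1 (edgeR adjusted p = 0.00357) and 0.05 ± 0.14 with shEZH2. SEMA3A and SEMA3C, ligands that use NRP1, thus rose with shE2F1 in the libraries where NRP1 fell.

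GSK126 left SEMA3B and SEMA3F near their DMSO values. SEMA3B had 150 and 152 CPM with DMSO and 126 and 141 with GSK126, and SEMA3F had 48 and 46.4 and 42.8 and 47.8. The GSK126 libraries of SEMA3B lay just below both DMSO libraries and those of SEMA3F overlapped them. The log2 changes were -0.17 ± 0.11 and -0.06 ± 0.12, each with an edgeR adjusted p of 1. SEMA6B was at 29.4 and 32.6 CPM and then 33.5 and 39.1, and SEMA7A at 107 and 150 CPM and then 118 and 171.

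Of the members, 5 had an unadjusted edgeR p under 0.05 with GSK126, all of them higher, beside 577 of 14632 genes (3.94%), and none had an adjusted p under 0.05. PLXNA2 and PLXNA4 were named from this count after their values were seen. SEMA3E had 3.91 and 3.38 CPM with DMSO and 8.45 and 7.12 with GSK126, a log2 change of 1.09 ± 0.20 (edgeR adjusted p = 0.749). SEMA5A had 26 and 12 counts and then 76 and 57, a log2 change of 1.95 ± 0.38 (edgeR adjusted p = 0.749), and the ratio of summed counts was 3.94 (95% exact interval 2.73 to 5.82). SEMA6A had 4 and 3 counts and then 11 and 15, with a log2 change of 2.00 ± 0.56 (edgeR adjusted p = 1). It passed the filter on low counts there only through the GSK126 libraries. PLXNA4 and PLXNA2 had log2 changes of 1.13 ± 0.38 and 0.54 ± 0.17. The 2 groups failed to overlap for 12 of the 29 members and for 28.4% of all genes tested.

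Within replicate 1 and within replicate 2, SEMA3E was higher with GSK126 by 1.09 and 1.05, and SEMA5A by 1.68 and 2.16 on the log2 scale of CPM + 0.1. With the replicate number as a block, SEMA5A (log2 change 1.97, edgeR adjusted p = 9.04e-06) and SEMA3E (1.09, edgeR adjusted p = 1.91e-05) were called. SEMA5A was also called without DMSO replicate 1 (2.53, edgeR adjusted p = 0.000441) or GSK126 replicate 2 (2.15, edgeR adjusted p = 0.000498).

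Of 55 co-receptors, ligands, GTPases, effectors and proteases that work with semaphorins, 46 could be tested in the hairpin experiment. With shE2F1, 10 (21.7%) were called, 3 higher and 7 lower, beside 11.6% of all genes, and the median log2 change of the partners was -0.20. No test of that difference in share was made. The co-receptor PTK7 fell by 1.80 ± 0.13 (log2, edgeR adjusted p = 2.68e-06) and VEGFA, the main ligand of NRP1 outside the semaphorins, by 1.28 ± 0.10 (edgeR adjusted p = 6.47e-06), from 130 and 118 to 48.6 and 53.6 CPM. FURIN, the protease that processes class 3 semaphorins, fell by 1.41 ± 0.09 (edgeR adjusted p = 2.07e-06), from 98.4 and 98.6 to 37.4 and 36.8 CPM. ARHGEF12, an exchange factor bound by class B plexins, fell by 1.15 ± 0.08 (edgeR adjusted p = 3.52e-06). The actin regulators MICAL2, LIMK1 and SH3BP1 fell by 1.41 ± 0.09, 1.27 ± 0.12 and 2.00 ± 0.25 (edgeR adjusted p = 1.62e-06, 1.38e-05 and 0.000105).

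The partners that rose with shE2F1 started from few reads. They were too low in control and passed the filter on low counts through hairpin libraries, where they are higher. Their p-values and their part in the share called carry this limit. DPYSL3, a collapsin response mediator, rose by 5.29 ± 0.41 (edgeR adjusted p = 5.37e-06), from 2 and 7 counts to 241 and 166. Its value was 4.58 without control replicate 1, 6.50 without control replicate 2 and 3.68 with the effective-length offset. RND1, a GTPase that binds plexins, rose by 3.40 ± 0.49 (edgeR adjusted p = 0.00029), from 7 and 4 counts to 77 and 55. FLT1, a VEGF receptor, rose by 2.40 ± 0.51 (edgeR adjusted p = 0.00332), from 8 and 3 counts to 29 and 36. It lost the call with DESeq2 (2.45, adjusted p = 0.0144) and without control replicate 2 (1.95), shE2F1 replicate 1 (2.62) or shE2F1 replicate 2 (2.14), and was at 3.14 without control replicate 1.

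With shEZH2, 11 of the 46 partners (23.9%) were called, 6 lower and 5 higher, beside 18.2% of all genes, with a median log2 change of 0.18. VEGFB, CDK5, MICAL1, LIMK1, SH3BP1 and RHOD were lower, with log2 changes of -1.57, -1.40, -1.30, -1.27, -2.15 and -1.13. MMP14 and ADAM17, proteases that cut membrane semaphorins, were higher at 1.61 ± 0.12 and 1.26 ± 0.11. MMP14 stood at 424 and 467 CPM in control and 1214 and 1506 with shEZH2. TIAM1, DPYSL3 and NRCAM were also higher, with changes of 1.02, 2.24 and 2.22, the last from 6 and 5 counts to 16 and 30. NRCAM, too low in control, passed the filter on low counts through its shEZH2 libraries. Without shEZH2 replicate 2 the calls of RHOD (-0.86), TIAM1 (0.97), DPYSL3 (2.13) and NRCAM (1.94) were lost. DPYSL3 was at 1.53 without control replicate 1, also not called, and at 3.45 without control replicate 2. RHOD (-1.0) and NRCAM (2.26) were not called without control replicate 1 either, and NRCAM (2.18) not without control replicate 2. GC and length correction ended the shEZH2 calls of ADAM17 (0.96), MICAL1 (-0.96), RHOD (-0.54) and TIAM1 (0.87), and the effective-length offset those of SH3BP1 (-1.44), DPYSL3 (0.88), NRCAM (0.79) and TIAM1 (0.94). NRCAM was not called with DESeq2 (2.26) either, nor DPYSL3 with the 4 libraries of the comparison alone (2.22). With GSK126 none of the 45 partners tested was called.

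Of 23 other protein-coding genes within 300 kb of SEMA3B and SEMA3F at 3p21.31, 16 could be tested. With shEZH2, 4 (25%) were called, all lower, beside 18.2% of all genes (10.7% lower), and the median log2 change was -0.67. After GC and length correction 2 were called. MST1R, the receptor for macrophage-stimulating protein whose outer part carries a semaphorin-type domain, had 33.3 and 24 CPM in control, 3.57 and 1.67 with shEZH2 and 33.1 and 36.2 with shE2F1. Both shEZH2 libraries were far below the rest, and the shE2F1 libraries were near control. Its log2 change was -3.50 ± 0.27, or -4.09 without shEZH2 replicate 1. CYB561D2, NAA80 and HYAL2 were at -1.63 ± 0.22, -1.14 ± 0.25 and -1.09 ± 0.12. HYAL2 was at -0.92 without shEZH2 replicate 2, and NAA80 at -0.82 without control replicate 1 and -1.0 without shEZH2 replicate 1, which ended those calls. The correction took HYAL2 to -0.63 and NAA80 to -0.60, and HYAL2 also missed 2-fold with the effective-length offset.

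With shE2F1, TUSC2 alone among the 16 (6.25%) was called, beside 11.6% of all genes (5.6% higher). It rose by 1.14 ± 0.11 (log2, edgeR adjusted p = 1.86e-05), from 34.7 and 37.1 CPM to 79.9 and 78.6 CPM, and the median of the 16 was 0.10. Its change was just under 2-fold with the effective-length offset. The neighbours' changes ranged from -3.50 to 0.47 with shEZH2 and from -0.23 to 1.14 with shE2F1, beside SEMA3F at -3.12 and -1.28. NAA80 overlaps HYAL3 and HYAL2 overlaps TUSC2 on the same strand, so reads may be divided between the genes of these pairs. CYB561D2 overlaps TMEM115 on the opposite strand, and their reads are mixed only if the counting ignored strand.

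**Figure D4:**
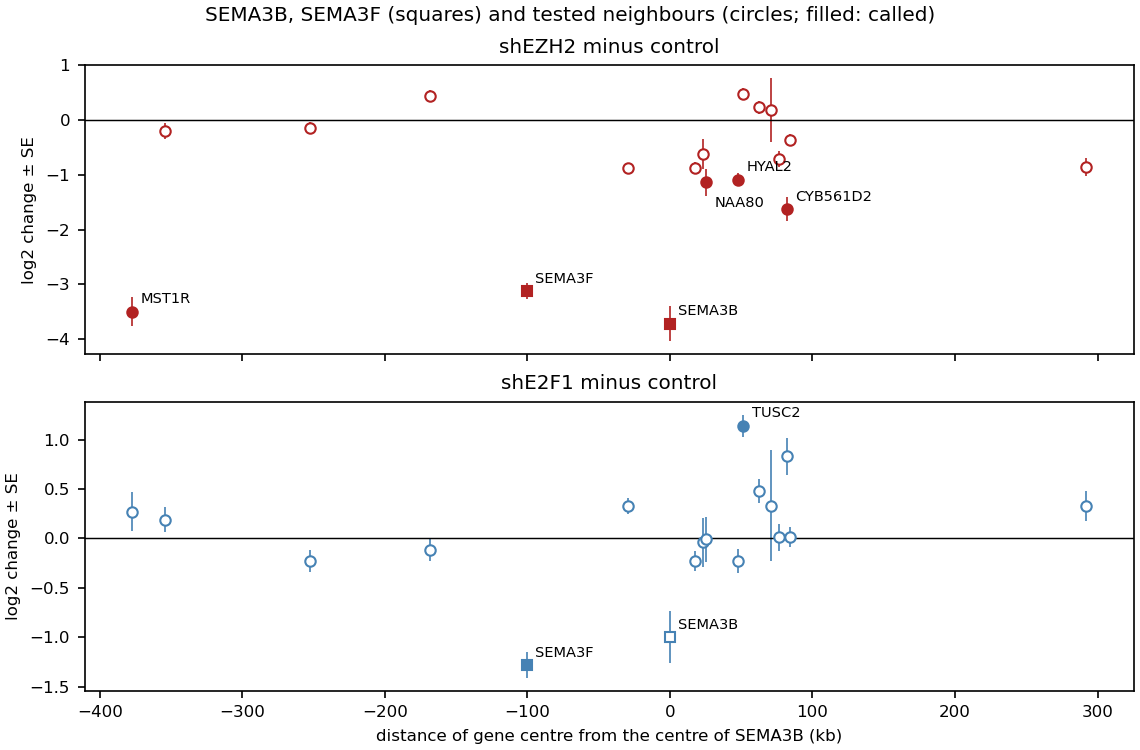
Log2 change (y axis, ± SE) of SEMA3B and SEMA3F (squares) and the 16 tested neighbours (circles) against distance from the centre of SEMA3B in kb, for each hairpin; filled points are called. With shEZH2 MST1R, SEMA3F and SEMA3B are the lowest 3 points, and with shE2F1 only the semaphorins lie below -0.23.

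GC content moved with the shEZH2 values. The 15 tested members with at least 55% GC in their gene model had a median log2 change of -0.79 and the other 14 had -0.03, and over all genes the medians were -0.38 and 0.09. After each library was corrected for GC content and length, SEMA3B was at -3.14, SEMA3F at -2.64 and SEMA6B at -2.18, SEMA7A was at 2.00, PLXNB2 at -0.75 was under 2-fold, and SEMA4B (1.03), SEMA4C (1.10) and PLXNA2 (-1.07) passed. The corrected medians of the members were -0.54 and -0.15. With shE2F1 the GC-rich members had a median of -0.40 and the others 0.65, while over all genes both medians were within 0.01 of 0.

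The control replicates also differed, with larger medians on the GC-rich side. Control replicate 1 was higher than replicate 2 for 13 of the 15 GC-rich members, with a median log2 difference of 0.42. Over 4292 GC-rich genes it was higher for 3006, with a median of 0.13. It was also higher for 10 of the other 14 members (median 0.15), beside 4761 of 11074 other genes (median -0.04). In the shEZH2 and shE2F1 groups replicate 1 was higher for 5 and 5 of the 15, beside 2312 and 2258 of the 4292 genes. The part that these differences play in the members' changes was not tested.

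**Figure D5:**
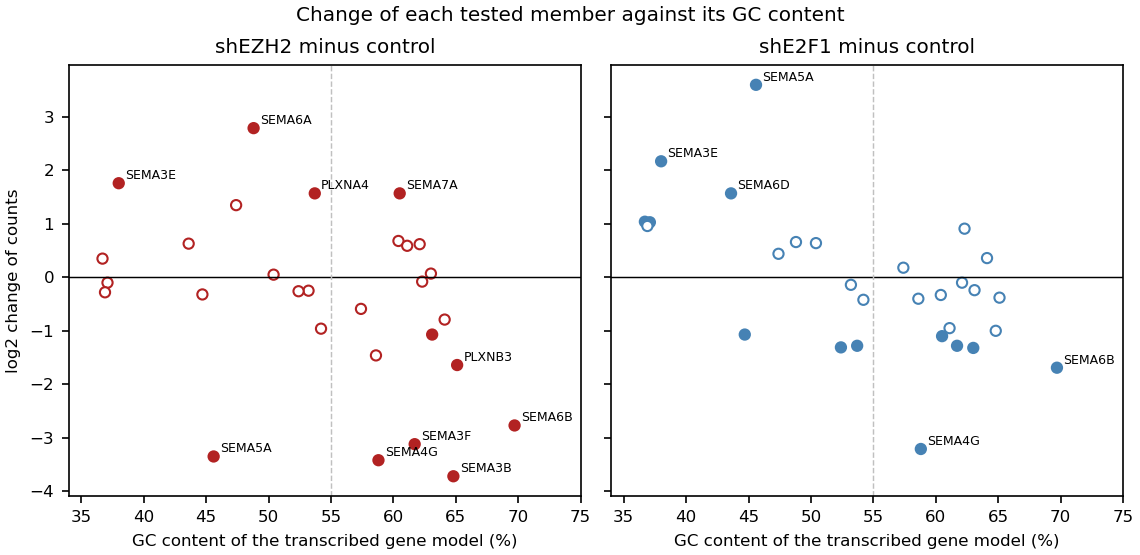
Log2 change of each tested member (y axis) against GC content of its gene model in percent (x axis), for each hairpin, with called members filled and the dashed line at 55%. With shEZH2 SEMA3B, SEMA3F, SEMA4G, SEMA6B, PLXNB2 and PLXNB3 form the filled points at the lower right, and SEMA7A is a GC-rich member above 0.

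Counts and TPM did not tell the same story for members whose estimated transcript length shifted. PLXNB3 had 27.9 and 14.9 TPM in control and 14.5 and 17.9 TPM with shEZH2, overlapping levels, although its counts were 3.11-fold lower. Its effective length, the isoform-weighted length RSEM divides by, was 2366 and 2516 bases in control and 1249 and 1100 bases with shEZH2. With effective length as an offset, 5 members were called with shEZH2 and 8 with shE2F1. PLXNB3 was then at -0.57 with shEZH2, PLXNA4 at 0.49 and SEMA4G at -2.03. SEMA3E (1.57), SEMA5A (-2.16) and SEMA6A (2.18) also lost their shEZH2 calls, and SEMA3B, SEMA3F, SEMA6B, SEMA7A and PLXNB2 kept theirs. With shE2F1 SEMA4G was at -1.53 (edgeR adjusted p = 0.098), SEMA3C at 0.93, SEMA4D at -0.98, SEMA6D at 1.06 (edgeR adjusted p = 0.019) and PLXNA4 at -2.04 (edgeR adjusted p = 0.0117). The median TPM change of all genes tested was 0.16 with shEZH2 and 0.21 with shE2F1 on the log2 scale of TPM + 0.1, so TPM levels are compared between groups only relative to that shift.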

How the data were processed

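Per the labels and the study's methods, the authors mapped reads to hg38 with STAR and an Ensembl annotation and quantified genes with RSEM (the processing notes list STAR 2.7.2b and RSEM 1.3.1), the libraries came from a directional kit, and the strand setting of the counting is not given in the sources used here. The deposited values used were expected counts per gene, not normalized, and TPM per gene, with RSEM's effective length. Of 18 sample records, 8 repeated another record's values exactly and were counted once, leaving 10 libraries of 13198932 to 20055550 counts.

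Expected counts were rounded and tested with edgeR 4.0.16 (R 4.3.3): filterByExpr, TMM scaling, glmQLFit and glmQLFTest with 1 coefficient per group, over the 6 transduced libraries together and over the 4 drug libraries apart, with p-values adjusted by Benjamini-Hochberg across every gene fitted. The pipeline was run on simulated data, where recovery of changed genes was required of the hairpin design and not of the drug design. Genes were named through GENCODE v44, which held 99.9% of the identifiers.

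The members, partner list, neighbours and naming rule were chosen with earlier results of these data known. Every member has its level. Members called with either hairpin, SEMA3B, SEMA3F and the members with the lowest p with GSK126 have values in every library, and partners and neighbours are named when called. DESeq2 1.42.0, other scaling, filters, samples, GC and length correction (splines with 5 degrees of freedom), effective-length offsets, a replicate block and left-out libraries were the alternatives.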

Additional observations from a re-analysis of the deposited data

How the results depend on the processing

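Of 178 recomputed counts, 153 stayed within 1.5 times their value. The effective-length offset gave 5 called members with shEZH2, 8 with shE2F1 and 0 called neighbours with shE2F1. Dropping the fold requirement at an adjusted p under 0.05 gave 20 members, 32 partners, 11 neighbours and 8550 genes with shEZH2, and 18 members, 30 partners, 4 neighbours and 6879 genes with shE2F1. GC and length correction, with or without the block, gave 2 neighbours with shEZH2, and with the block 7 partners. Leaving out a library gave 8 to 12 members, 7 to 13 partners, 3 to 4 neighbours and 2015 to 2923 genes with shEZH2, 11 to 14 members, 9 to 11 partners, 1 neighbour and 1281 to 1820 genes with shE2F1, and 0 to 1 members, 0 partners and 37 to 43 genes with GSK126. DESeq2 called 11 genes with GSK126 and no member. The replicate block called 2 members and 68 genes there, and 86 genes and 2 members with GC and length correction. The drug libraries with the same number deviated together (r = 0.71 over 11907 genes), while the transduced groups gave 0.04, 0.04 and 0.2. The numbers are only shared in the labels, and the block left 11 and 13 members called with the hairpins. The sign turned for uncalled members. With shE2F1, leaving out libraries gave -1.40 to 0.23 for SEMA3G (0.20 without control replicate 1), -0.38 to 0.25 for PLXNA1, -0.0013 to 0.40 for PLXNA3, -0.0033 to 1.14 for PLXNC1 and -0.70 to 0.04 for PLXNB3. PLXNA1 was also at 0.01 with GC correction, with or without the block, and SEMA6C at -0.02 with the effective-length offset. With shEZH2, leaving out libraries gave -0.22 to 0.44 for PLXND1, -0.43 to 0.41 for PLXNB1, -0.72 to 0.10 for SEMA3D and -0.11 to 0.19 for NRP2. SEMA3F ranged from -0.14 to 0.02 with GSK126. The cause was not tested.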
